A study of Arabidopsis thaliana with 6 samples.

Results

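Dehydrin and cold-regulated transcripts were examined in roots of Arabidopsis thaliana seedlings exposed to a toxic amount of boron. The 4 genes are LTI30 (AT3G50970, also called XERO2), COR47 (AT1G20440, also called RD17), COR15A (AT2G42540) and DI21 (AT4G15910). They were found by name through the annotation of the array's probe sets, out of 13355 genes named by a probe set of their own. They were chosen with earlier results of these data known, that of LTI30 among them. Each was measured by 1 probe set: 252102_at for LTI30, 259570_at for COR47, 263497_at for COR15A and 245523_at for DI21. The name of each ends in plain _at, which on this array type marks probes meant for a single transcript.

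The study hybridised root RNA to 6 Affymetrix ATH1 arrays. For 3 of them, seedlings were moved at 5 days of age to agar medium with 5 mM boric acid. The other 3 were from seedlings of the same age under control conditions, and all roots were taken at 12 h. The labels call the arrays of a group biological replicates 1 to 3, and they are named boric acid 1 to 3 and control 1 to 3 below. The titles and the design text set the groups. The growth text of the control samples repeats the transfer to boric acid plates, word for word as for the treated ones, and was read as shared text that does not describe the control medium. No genotype or accession is given in the labels. All seeds had been chilled at 4 °C for 2 d before germination, and all seedlings grew at 22 °C with 16 h of light and 8 h of dark, so neither group was in the cold when sampled. The comparison asks how the stress-linked transcripts of roots stand early in boron excess. A whole root was extracted, so a change of the transcript within cells and a change in the share of cells that hold it cannot be told apart.

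Late embryogenesis abundant (LEA) proteins are small, very hydrophilic and mostly unfolded proteins that accumulate in maturing seeds and in plants losing water. Dehydrins are the LEA family marked by a lysine-rich segment that folds into a helix on membranes; LTI30 and COR47 belong to it. COR15A encodes a protein of the chloroplast stroma that stabilises membranes during freezing, and DI21 encodes a small LEA protein named after its induction by drought. Many such genes are switched on by cold through the CBF transcription factors and by water shortage through abscisic acid.

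Values are on a log2 scale, so a difference of 1 stands for a doubling of signal. Probe sets differ in brightness for the same amount of RNA, and changes are therefore measured between groups for each gene. Where genes are sorted by level below, the level is the brightness of the probe set and not an amount of RNA compared between genes. Background was read from the TrpnX controls, 3 probe sets that match no plant transcript, whose values ran from -0.12 to 0.217 over the 6 arrays. LTI30, COR47 and DI21 lay far above that range on all 6 arrays, with control means between 8.13 and 8.68. COR15A passed it on 1 array.

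The array set as a whole was as follows. Array medians lay between 1.45 and 1.49. The 3′ minus 5′ difference of the actin probe sets, a measure of RNA quality, was 2.96 on boric acid 1 and 2.6 on control 1, and 1.23 to 1.71 on the other 4 arrays. For the GAPDH probe sets this difference was smaller, at 0.24 on boric acid 1, 0.49 on control 1 and -0.18 to -0.03 on the other 4. Of 22746 probe sets tested, 740 (3.25%) passed an adjusted p of 0.05 in limma, 436 of them higher in boric acid (1.92%) and 304 lower (1.34%). When the replicate number entered the fit as a block, 2081 (9.15%) passed, 1205 of them higher (5.3%). Of 13 root markers 3 were measured, and all 3 were above background on every array, with a summed linear signal of 1147 to 1411 in control and 1031 to 1121 in boric acid. That sum was nearly all PYK10, with a control mean of 10.27 beside 3.74 for EXPA7 and 3.55 for EXPA18. The change of PYK10 was -0.25 ± 0.12 (SE, limma, adjusted p = 0.364), while those of EXPA7 and EXPA18 were 0.02 and 0.67. Of 16 green tissue markers 4 were measured, at a summed linear signal of 48.1 to 62.1 in control and 38.2 to 71.0 in boric acid, and none passed the threshold. LHCB4.3 was under the highest TrpnX value on 1 array. The root marker with the largest change was EXPA18, an expansin of root hairs, at 0.67 ± 0.22 (SE, limma, adjusted p = 0.190, and 0.0353 with the block). Among the green tissue markers it was LHCB4.2, a light-harvesting gene, at -0.99 ± 0.33 (SE, limma, adjusted p = 0.187). LHCB4.2 passed without control 1 (limma, adjusted p = 0.0350) and without both arrays numbered 1, at -1.50 ± 0.18 (SE, limma, adjusted p = 0.0118).

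Among the 4 genes LTI30 rose, and COR47, DI21 and COR15A did not pass the threshold. That is 1 of 4 genes higher, beside 1.92% of all probe sets. As the result of LTI30 was known when the genes were chosen, the counts and the median given here are descriptions. LTI30 and COR47 had boric acid arrays that all lay above all control arrays, as 10.9% of probe sets did. With the block the count was again 1 of 4, beside 5.3% of all probe sets. The median change of the 4 genes was 0.50, and that of all probe sets was -0.01.

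**Figure D1:**
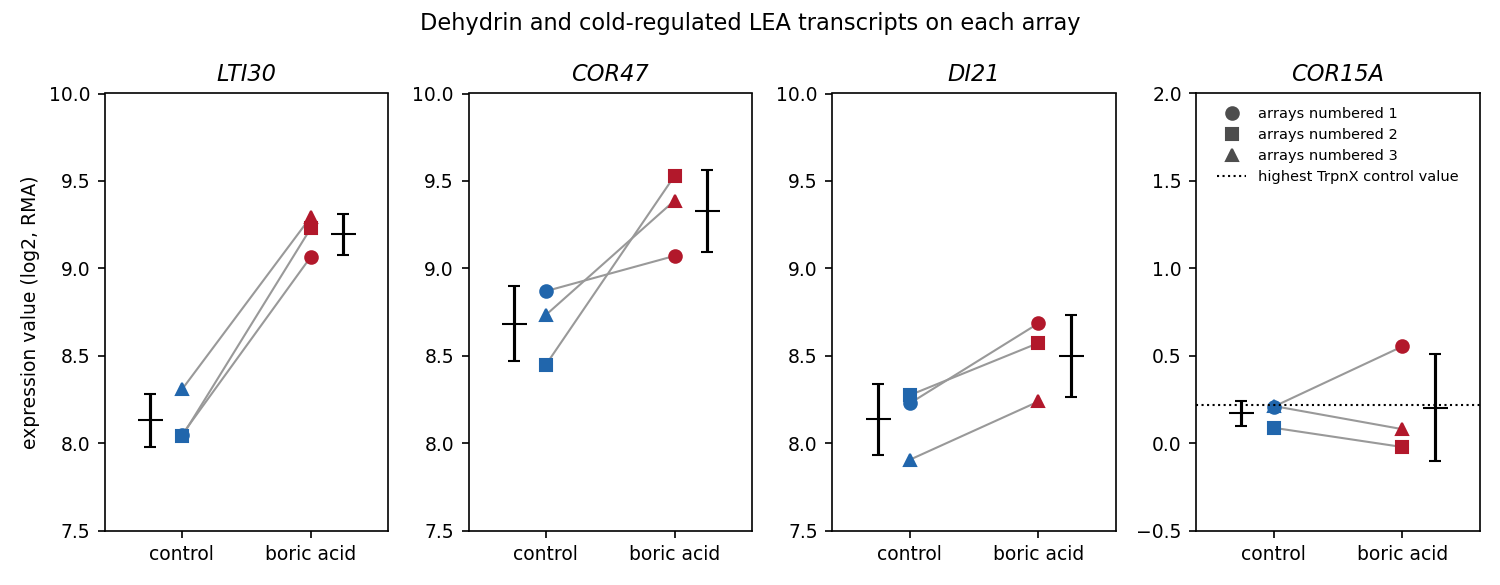
Expression value (log2, RMA) of LTI30, COR47, DI21 and COR15A on each control (blue) and boric acid (red) array. Grey lines join arrays with the same replicate number, black bars give the mean ± SD of 3 arrays, and the dotted line in the COR15A panel is the highest TrpnX value; that panel covers -0.5 to 2 and the others 7.5 to 10, at the same scale. LTI30 shows 3 nearly parallel lines, while the COR47 line of the arrays numbered 1 is the flattest of its 3 and only 1 COR15A array lies above the dotted line.

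LTI30 is a lysine-rich dehydrin that binds membranes. Its values were 8.05, 8.04 and 8.31 on control 1 to 3, and 9.07, 9.23 and 9.29 on boric acid 1 to 3. The 2 groups were separated by a gap wider than the range within either one. Control roots had a mean of 8.13 ± 0.15 (SD, n = 3) and boric acid roots one of 9.20 ± 0.12. This is a 2.09-fold rise, with a 95% confidence interval of 1.70 to 2.57 (log2 change 1.06 ± 0.12, SE, limma, adjusted p = 0.0121). Taken by replicate number, the difference was 1.02, 1.19 and 0.99 for the arrays numbered 1, 2 and 3.

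The size of the LTI30 change hardly moved when arrays were left out, while its call did. Over the 6 fits without 1 array the change was between 1.02 and 1.15. The call was lost without boric acid 2 (adjusted p = 0.0741), boric acid 3 (adjusted p = 0.0612) and control 2 (adjusted p = 0.0592), when the count of probe sets past the threshold also fell, to 70, 201 and 143. Without both arrays numbered 1, which had the highest actin 3′ minus 5′ differences, the change was 1.09 ± 0.15 (SE, limma, adjusted p = 0.0151).

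LTI30 was a bright probe set already in control roots, and few probe sets of that brightness rose as far. Of 340 probe sets with a control mean above 8, a limit chosen after its value was seen, 4 rose (1.18%), and 1 had a larger rise than LTI30. Over all 22746 probe sets, 420 (1.85%) had a larger rise. The median change of the 340 was -0.04.

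COR47 is an acidic dehydrin induced by cold and by drought. Its values were 8.87, 8.45 and 8.73 on control 1 to 3, and 9.07, 9.53 and 9.39 on boric acid 1 to 3. The lowest boric acid array lay just above the highest control array, and these were the 2 arrays numbered 1. The means were 8.68 ± 0.22 (SD, n = 3) and 9.33 ± 0.23, a ratio of 1.56 with an interval of 1.18 to 2.07. The log2 change of 0.65 ± 0.17 (SE) had an unadjusted p of 0.00747 and did not pass over all probe sets (limma, adjusted p = 0.111, and 0.0920 with the block).

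The pairs of arrays differed for COR47 far more than for LTI30. By replicate number the difference was 0.20 for the arrays numbered 1, 1.08 for those numbered 2 and 0.65 for those numbered 3. Without both arrays numbered 1 the change was 0.87 ± 0.15 (SE), and COR47 then passed (limma, adjusted p = 0.0301), in a fit in which 4.08% of probe sets rose. The part of RNA quality in this was not tested. In the 6 fits without 1 array the change was 0.53 to 0.77 and never passed (adjusted p from 0.0807 to 0.327).

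DI21 is a LEA gene of another class, without the dehydrin segment. It read 8.23, 8.27 and 7.91 on control 1 to 3, and 8.69, 8.57 and 8.24 on boric acid 1 to 3. The groups overlapped, since boric acid 3 lay below control 2, and the arrays numbered 3 were the lowest of both groups. Group means were 8.14 ± 0.20 (SD, n = 3) in control and 8.50 ± 0.23 in boric acid. The log2 change was 0.36 ± 0.16 (SE, limma, adjusted p = 0.344), a ratio of 1.29 with an interval of 0.978 to 1.69.

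Set side by side by number, the DI21 differences were alike, at 0.46, 0.30 and 0.33 for the arrays numbered 1, 2 and 3. With the replicate number as a block the interval of the log2 change was 0.10 to 0.63, with an unadjusted p of 0.0156, and the gene did not pass over all probe sets (limma, adjusted p = 0.103). Leaving out 1 array gave changes of 0.25 to 0.49 and no call. Within each group DI21 was lowest on the array numbered 3, where the actin 3′ minus 5′ difference was lowest too (1.28 in boric acid and 1.23 in control), whereas LTI30 was highest on those arrays. The part of RNA quality in these orders was not tested.

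COR15A is one of the best known targets of the CBF factors in leaves. The control arrays read 0.21, 0.09 and 0.21 and the boric acid arrays 0.55, -0.02 and 0.08. Boric acid 1 alone exceeded the highest TrpnX value of 0.217, and the other 2 boric acid arrays lay below all 3 control arrays. The means of 0.17 ± 0.07 (SD, n = 3) and 0.20 ± 0.31 were both within the background range, so no ratio is given. The log2 difference was 0.03 ± 0.17 (SE), with an interval of -0.37 to 0.44 (limma, adjusted p = 0.959), and it was -0.14 without boric acid 1. On the other 5 arrays, controls included, COR15A did not exceed that highest value over all arrays. On control 3 it read 0.213, above that array's own highest TrpnX value of 0.161.

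**Figure D2:**
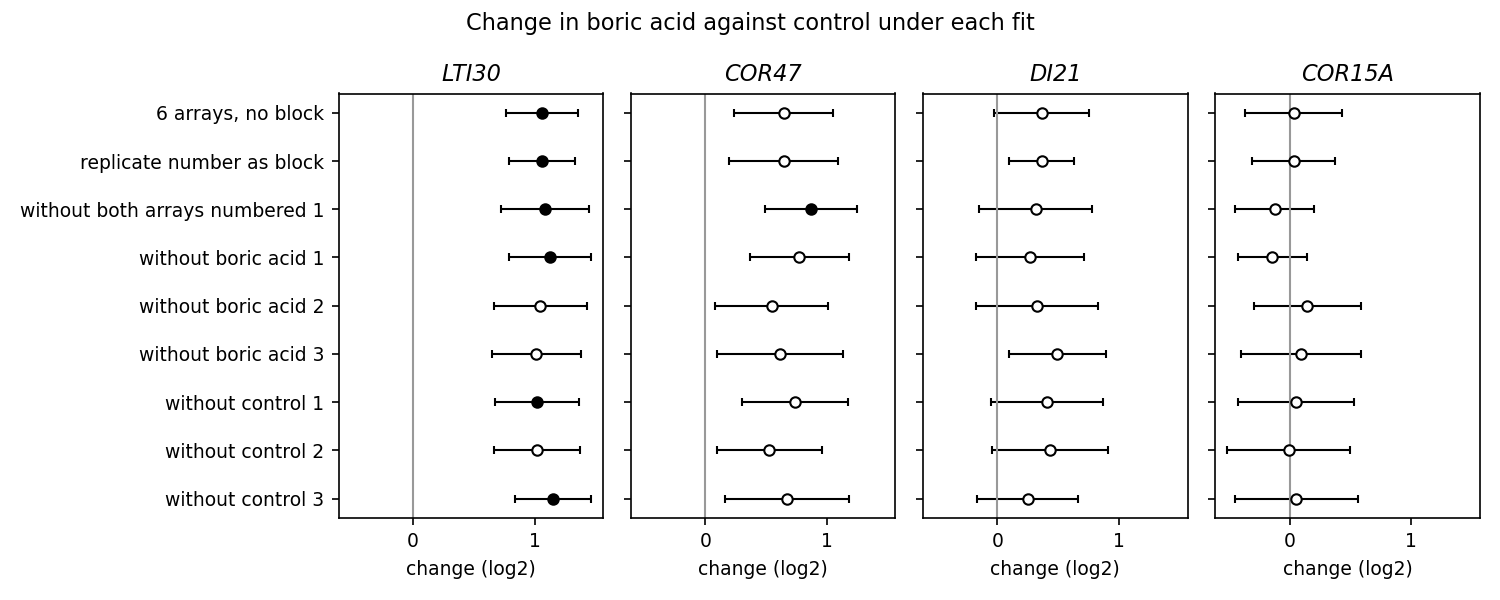
Change in boric acid minus control (log2, x axis) with its 95% confidence interval for each of the 4 genes, from all 6 arrays, with the replicate number as a block, and with arrays left out. Filled points passed an adjusted p of 0.05. LTI30 stayed between 1.02 and 1.15 in all fits shown with filled and open points mixed, COR47 was filled only without both arrays numbered 1, and DI21 and COR15A were open throughout.

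The size of the change was compared between the 3 detected genes within each array, so that an offset equal for both genes compared cancels. Array effects that differ between probe sets stay in the difference. LTI30 gained 0.42 more than COR47 in boric acid, and the LTI30 minus COR47 difference was larger on every boric acid array than on any control array (p = 0.1 in a two-sided exact permutation test, the smallest that 3 against 3 arrays allow). By replicate number that gain was 0.82, 0.11 and 0.33. LTI30 gained 0.70 more than DI21 (p = 0.2, exact permutation test), by 0.56, 0.89 and 0.65 in the 3 numbered pairs. COR47 gained 0.28 more than DI21 (p = 0.4, exact permutation test), with the opposite sign, -0.26, in the arrays numbered 1. Adjusted over these 3 comparisons the p-values were 0.3, 0.3 and 0.4 (exact permutation tests, without regard to the numbering). With 3 against 3 arrays this permutation test, which does not use the numbering, cannot reach 0.05. It leaves unsettled whether the 3 changes differ, and no test by numbered pair was run.

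Of 10 Arabidopsis dehydrin genes written down, LTI30, COR47 and 4 others were measured by a named probe set. ERD10, the neighbour of COR47 on the chromosome, XERO1, the neighbour of LTI30, ERD14 and RAB18 were not analysed here. None of the other 4 passed (limma, lowest adjusted p = 0.458, and 0.205 with the block), and none had an unadjusted p under 0.05 without the block. Their median change was -0.11.

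AT1G54410 encodes HIRD11, a small dehydrin, and was the one of the other 4 with means above 7. Control 1 to 3 read 8.95, 9.67 and 9.72, and boric acid 1 to 3 read 8.94, 8.91 and 9.24. Control 1 sat among the boric acid arrays, and the other controls lay above all of them. The change of -0.42 ± 0.23 (SE) pointed away from those of LTI30 and COR47 (limma, adjusted p = 0.458). It was -0.67 without control 1 (adjusted p = 0.0588). With the block its interval was -0.83 to -0.01, with an unadjusted p of 0.0476 (limma, adjusted p = 0.205).

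The remaining dehydrin entries were dim. AT2G21490, which the gene table calls dehydrin LEA, was at 0.32 ± 0.04 (SD, n = 3) in control roots and 0.19 ± 0.07 after boric acid, with a change of -0.12 ± 0.09 (SE). AT4G38410, which has no name in that table, was above background on all 6 arrays, at 0.94 ± 0.12 (SD) in control roots and 1.17 ± 0.32 after boric acid, with a change of 0.22 ± 0.18 (SE) that was 0.047 without boric acid 3 and 0.35 without boric acid 2. AT4G39130 was not above background on any array, with a change of -0.10 ± 0.10 (SE). Of 3 entries related to DI21, only AT3G53770 was measured, and its means of 0.19 in control and 0.13 in boric acid were within the background range (change -0.06 ± 0.10, SE).

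Of 27 other measured LEA genes, from 37 written down, 5 rose and none fell, beside 1.92% and 1.34% of all probe sets. In 12 of the 27 the mean over all arrays was at or under background, where a fall could hardly be seen. With the block 6 rose, beside 5.3%. Their median change was 0.05, beside -0.01 for all probe sets. AT3G02480 and LEA4-5 had changes of 5.997 ± 0.284 and 4.97 ± 0.47 (SE), both starting from control means under 1.2. LEA4-5 missed the threshold without boric acid 2 (limma, adjusted p = 0.0529). AT2G23110 had means of 0.84 ± 0.33 (SD, n = 3) and 3.0 ± 0.38 and rose by 2.16 ± 0.24 (SE, limma, adjusted p = 0.0112). LEA18, a LEA gene of the same class as LEA4-5, rose from 0.40 ± 0.20 (SD) to 1.73 ± 0.31, by 1.33 ± 0.19 (SE, limma, adjusted p = 0.0206). Leaving out boric acid 2 or control 2 ended the call of AT2G23110, whose change lay between 1.99 and 2.36 in the 6 fits without 1 array. Of these fits, those lacking boric acid 1 and control 1 kept the call of LEA18, and its change lay between 1.17 and 1.47.

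AT2G23120, named after its values were seen, rose by about as much as LTI30 and, like it, from a signal far above background. The control arrays read 7.60, 7.71 and 7.39, and the boric acid arrays 8.63, 8.77 and 8.44. All boric acid arrays lay above all control arrays. The change was 1.05 ± 0.14 (SE, limma, adjusted p = 0.0174), and over the 6 fits without 1 array it was 0.96 to 1.13, with the call kept without boric acid 3 or control 1 and lost in the other 4. AT3G17520, also named after its values were seen, had a change of 1.75 ± 0.35 (SE) that did not pass without the block (limma, adjusted p = 0.0532) and passed with it (adjusted p = 0.0114). AT2G46140, annotated as LEA27, was the lowest of the list, at -0.43 ± 0.18 (SE, limma, adjusted p = 0.297), and at -0.26 without control 2.

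**Figure D3:**
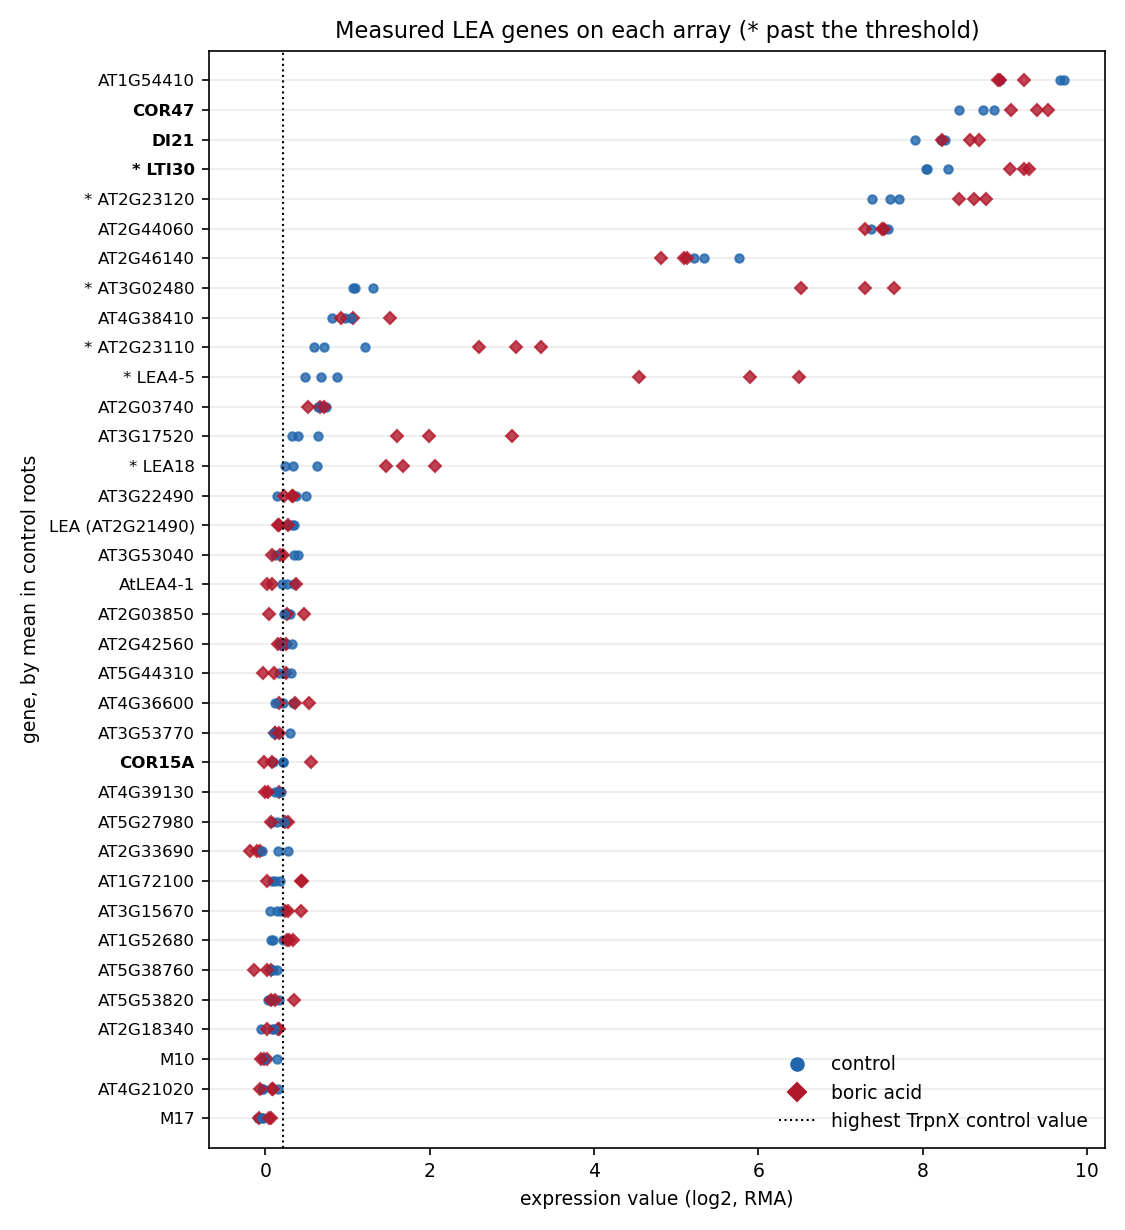
Expression value (log2, RMA, x axis) of the 36 measured LEA genes on each control array (blue circles) and boric acid array (red diamonds), listed by their mean in control roots; LTI30, COR47, DI21 and COR15A are in bold and * marks genes past an adjusted p of 0.05. LTI30, COR47 and DI21 are among the 6 genes above 7 in control roots, and COR15A is among those around the dotted line, the highest TrpnX value of 0.217.

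Counted together, the 36 measured LEA genes held 6 that rose (16.7%, beside 1.92% of all probe sets) and none that fell. In 15 of the 36 the mean over all arrays was at or under background, where a fall could hardly be seen. These counts were made on lists chosen with results of these arrays known, and AT3G02480, LEA4-5 and LTI30 were among the results known. By level in control roots, with limits chosen after the values were seen, 6 of the 36 were above 7. In that class LTI30 and AT2G23120 rose, and changes ran from -0.42 to 1.06. Another 16 lay above background and up to 7, of which 4 rose and 5 with the block, with changes from -0.43 to 5.997. The last 14 were at or under background in control roots, and none of them rose, COR15A among them, with changes from -0.24 to 0.19.

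**Figure D4:**
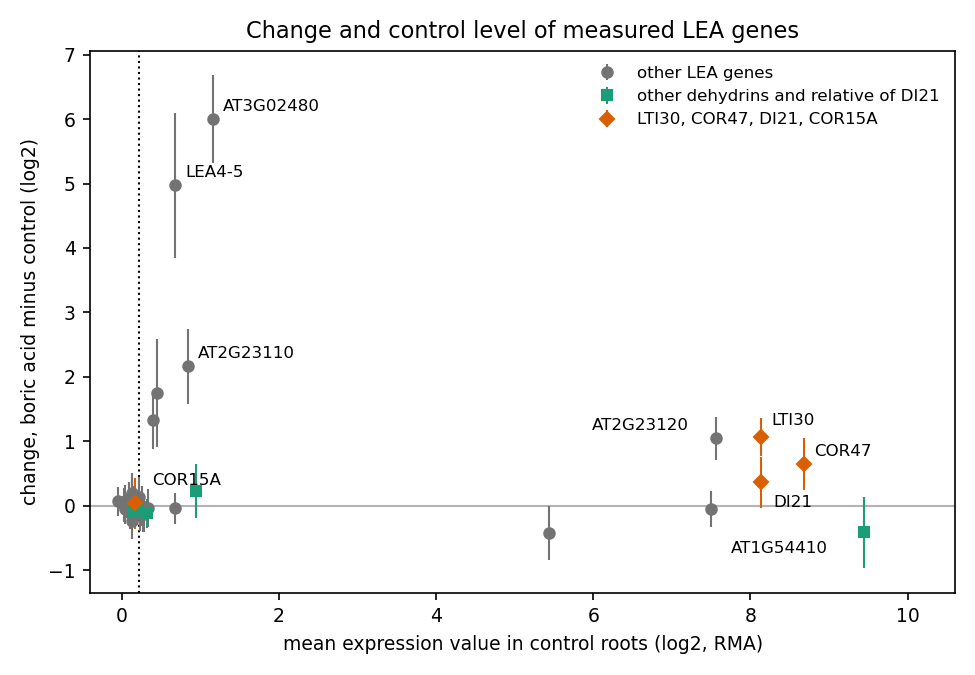
Change in boric acid minus control (log2, y axis, with 95% confidence intervals) against the mean expression value in control roots (log2, x axis) for the 36 measured LEA genes. Points to the left of the dotted line, the highest TrpnX value, were not above background in control roots; LTI30, COR47 and DI21 lie at the right with changes of 1.06, 0.65 and 0.36, and the changes above 4 are those of AT3G02480 and LEA4-5 at the left.

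Cold and drought genes outside the LEA family gave few values. Of 18 other cold-regulated genes 3 were measured, none passed (limma, lowest adjusted p = 0.565) and none had an unadjusted p under 0.05. COR15B, the neighbour and close relative of COR15A, was at 0.30 ± 0.14 (SD, n = 3) in control roots and 0.26 ± 0.02 after boric acid, with a change of -0.04 ± 0.11 (SE). The largest change of the 3 was that of COR27, a cold-regulated gene also tied to the circadian clock, at -0.22 ± 0.15 (SE), and at -0.084 without control 2 and -0.34 without control 1. Of 20 regulators of the cold response only STZ, the zinc finger factor also called ZAT10, was measured. Its change was 0.16 ± 0.48 (SE), with means of 1.33 ± 0.63 (SD) in control and 1.5 ± 0.83 in boric acid. Of 21 drought and osmotic response genes DI19, a zinc finger gene named like DI21 after drought, was measured and had a change of -0.24 ± 0.18 (SE, limma, adjusted p = 0.617). None of 42 genes of abscisic acid signalling, synthesis and breakdown and none of 10 seed markers had a probe set named for that gene alone here, so they were not analysed here.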

How the data were processed

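Biotin-labelled RNA was made from 0.5 µg of total RNA with a 3′ in vitro transcription kit, per the labels. Per the submitters' processing notes, RMA was used, with no version given. The values the authors deposited are log2 expression per probe set, and the step that set their baseline is not given in the sources used here. Of 22810 probe sets, 64 controls were set aside and 22746 tested. Names came from the array's probe table and RefSeq genes (TAIR10.1): 13513 probe sets had 1 gene, 13436 of them through RefSeq, 503 had several and 8730 none. Sequences of these genes were not used here.

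Boric acid was compared with control by limma's moderated test (limma 3.58.1, R 4.3.3), two-sided, with Benjamini-Hochberg adjustment over all 22746 probe sets and a threshold of 0.05; "rose" and "fell" mean past it. Folds are 2 to the power of the log2 change. The fit was tested on simulated data. The simulated noise was independent between arrays and held no likeness of same-numbered arrays. Arrays have no depth, and their number, 3 a group, limits the precision. Both groups carry replicate numbers 1 to 3. Deviations from the group means correlated over probe sets at 0.608, 0.231 and 0.618 for same-numbered arrays and at -0.619 to 0.284 for others. As every same-numbered pair was above 0.1, the fit with the number as a block is printed where it matters. The pair numbered 2, at 0.231, was below boric acid 3 with control 2, at 0.284. Whether the numbers pair all arrays is therefore not settled by this rule. Calls are from the fit without the block unless stated.

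The 4 genes and the lists, from 188 further entries, were chosen with earlier results of these data known. Named were the 4 genes, every measured dehydrin and relative of DI21, up to 4 genes past the threshold of each other list or else the 1 with the largest change, and the 3 genes most like each detected gene over the arrays. AT2G23120, AT3G17520, AT2G46140, COR15B, SWEET17 and AT1G20430 were chosen after their values were seen. Alternatives were the block, arrays left out, a filter on dim probe sets, renewed quantile or median scaling, and eBayes with trend or robust.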

Additional observations from a re-analysis of the deposited data

How the results depend on the processing

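LTI30, COR47 and DI21 kept a positive change under every alternative run, and DI21 kept its side of the threshold in all. LTI30 was past the threshold in every alternative except 3 of the 6 fits without 1 array, whose changes ranged from 1.02 to 1.15. COR47 ranged from 0.53 to 0.77 in those fits, and it passed only without both arrays numbered 1 (0.87, adjusted p = 0.0301, limma). DI21 ranged from 0.25 to 0.49. COR15A ranged from -0.14 to 0.15, being -0.14 without boric acid 1, -0.01 without control 2 and -0.12 without both arrays numbered 1. It was removed by the filter on dim probe sets, which gave no value for it. Of the other named genes, STZ ranged from -0.31 to 0.50 and COR15B from -0.090 to 0.044; neither was called. The replicate block changed no call of the 4 genes. The count of probe sets past the threshold was 740, and 2081 with the replicate block, 1604 without both arrays numbered 1 and from 70 to 1129 without 1 array; it lay between 631 and 757 under the other 5 settings. What makes the count depend on single arrays was not tested.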

Other observations

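The genes whose values followed LTI30 most closely over the 6 arrays, among 10885 singly named probe sets above background, were AT3G59660, AT1G54610 and AT3G26630, with Pearson's r of 0.997, 0.997 and 0.995. AT1G54610 rose by 0.56 ± 0.10 on the log2 scale (SE, limma, adjusted p = 0.0401). That call was lost in each fit without 1 array (adjusted p from 0.0618 to 0.151) and without both arrays numbered 1 (0.0663). It was also lost with the filter on dim probe sets (0.0505) and with the eBayes trend (0.128). AT3G59660 had a change of 0.45 ± 0.09 and AT3G26630 one of 0.51 ± 0.10. AT3G26630 passed with the replicate block (limma, adjusted p = 0.0403) and after renewed quantile scaling (0.0479), and not without either (0.0513). COR47 was followed most closely by AT4G38080, AT2G22510 and AT1G78990 (r = 0.994, 0.992 and 0.992). AT2G22510 rose by 1.97 ± 0.37 (SE, limma, adjusted p = 0.0477), from a mean of 4.94 to one of 6.91. Among the fits without 1 array its call was kept only without control 1. Robust eBayes also lost the call (limma, adjusted p = 0.0506). AT4G38080 and AT1G78990 had changes of 0.53 ± 0.17 and 0.99 ± 0.27. DI21 was followed by AT3G10860, AT5G27760 and AT1G27070 (r = 0.999, 0.997 and 0.994), with changes of 0.27 ± 0.13, 0.38 ± 0.17 and 0.36 ± 0.18. The 6 arrays share the treatment and the replicate number, and high values of r arise by search among so many probe sets, so these are descriptions. LTI30 and COR47 had r = 0.901 with each other, and DI21 had r = 0.569 with LTI30 and 0.488 with COR47.

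Of the genes directly beside the 4 on the chromosome, SWEET17, AT1G20430 and COR15B had a probe set of their own. SWEET17, a sugar transporter gene of the vacuole membrane next to DI21, was at 5.44, 5.17 and 4.93 on control 1 to 3 and at 4.60, 3.81 and 4.06 on boric acid 1 to 3. All its boric acid arrays lay below all control arrays, with a change of -1.02 ± 0.24 (SE, limma, adjusted p = 0.0800, and 0.0155 with the replicate block). AT1G20430, next to COR47 on the side away from ERD10, had a change of -0.25 ± 0.20 (SE, limma, adjusted p = 0.639), which lay between -0.43 (without control 3) and -0.14 (without control 1, and about as much without boric acid 3) when 1 array was left out.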
